A study of Homo sapiens with 6 samples.

Results

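R-loops within 1 Mb of the ends of human autosomes were followed in DNA-RNA hybrid immunoprecipitation sequencing (DRIP-seq) of SH-SY5Y cells, a human neuroblastoma line. Merging the called peaks of the 6 samples gave 75758 regions, of which the 2794 (3.69%) with a midpoint within 1 Mb of an end of chromosomes 1 to 22 are the members described here. The short-arm ends of chromosomes 13, 14, 15, 21 and 22 were left out, which left 39 ends, and every one of them held at least 2 members. The next 1 Mb inward from each of these ends held 3078 regions and served for comparison. The choice used position only, in hg38 coordinates. The member nearest the limit lay 999.99 kb from the end of 16q and had 986, 1285 and 1553 bp under peaks in shT2 and 0, 0 and 316 bp in shNC3, the 2 kinds of cell described next. The nearest region outside it lay 1000.3 kb from the end of 11p and had 1525, 942 and 482 bp in shT2 and 1154, 558 and 1281 bp in shNC3.

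Cells with the short hairpin RNA shT2 (3 samples) were set against cells with the hairpin shNC3 (3 samples). Both hairpins were expressed from the U6 promoter of a lentiviral vector, the virus was packaged in 293T cells, and infected SH-SY5Y cells of both kinds were kept under puromycin, as far as the labels tell. The series concerns stable knockdown of TDP-43, a protein that binds RNA. The labels name no target for either hairpin, and going by the names alone shT2 was taken to be the knockdown and shNC3 the negative control. Separate infections or cultures are not recorded for the replicates, so each hairpin stands for 1 selected population of 1 cell line, and p-values cover only the scatter among these samples, part of which may be technical.

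An R-loop forms when a nascent RNA pairs back with its template strand and leaves the other DNA strand unpaired, which is favoured by G-rich transcripts and is common at active promoters and over gene ends. Subtelomeres are the stretches just inside the telomere repeats. On many human chromosomes they are rich in GC and in genes, and their outermost parts are patchworks of duplicated sequence that several ends share. The telomeric repeat RNA TERRA is transcribed from subtelomeric promoters towards the chromosome end and is known to form R-loops there.

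The promoters under 4 of the members with the largest differences are shown by sequence. They lay under peaks of all 3 samples of 1 hairpin and of no sample of the other. In all, 6 promoters at the ends had this pattern for shT2 and 34 for shNC3. Other PDGFA windows had it too and are not shown (chr7:520651-520950 with 1 run of 4 or more G and chr7:519797-520096 with 7). Each sequence is the RefSeq promoter window (GRCh38.p14) on the strand of the gene, all of them on the minus strand, from 250 bases before to 50 bases after the annotated start. Capitals mark runs of 4 or more G on that strand. The promoters of RASA3 and PDGFA lay under peaks in the shNC3 samples, and those of COX19 and SCRT2 in the shT2 samples.
RASA3, chr13:114132574-114132873, minus strand: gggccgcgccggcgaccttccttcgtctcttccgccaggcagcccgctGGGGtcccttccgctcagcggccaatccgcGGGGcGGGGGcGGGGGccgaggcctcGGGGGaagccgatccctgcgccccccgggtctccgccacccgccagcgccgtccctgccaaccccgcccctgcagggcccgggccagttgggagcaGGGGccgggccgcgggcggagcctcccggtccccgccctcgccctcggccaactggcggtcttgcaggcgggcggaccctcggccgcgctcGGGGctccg
PDGFA, chr7:520177-520476, minus strand: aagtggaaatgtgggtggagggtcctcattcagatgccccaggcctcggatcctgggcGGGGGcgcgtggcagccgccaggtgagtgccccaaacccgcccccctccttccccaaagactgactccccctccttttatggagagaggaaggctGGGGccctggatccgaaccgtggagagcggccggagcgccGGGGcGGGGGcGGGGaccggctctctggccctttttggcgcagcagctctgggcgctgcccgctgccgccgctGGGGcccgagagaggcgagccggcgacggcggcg
COX19, chr7:975500-975799, minus strand: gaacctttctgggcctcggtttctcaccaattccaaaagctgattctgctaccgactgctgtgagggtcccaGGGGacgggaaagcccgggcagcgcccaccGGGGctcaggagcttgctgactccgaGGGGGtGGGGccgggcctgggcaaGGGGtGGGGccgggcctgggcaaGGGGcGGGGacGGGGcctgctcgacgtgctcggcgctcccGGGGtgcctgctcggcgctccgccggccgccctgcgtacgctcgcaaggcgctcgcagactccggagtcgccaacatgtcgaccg
SCRT2, chr20:675753-676052, minus strand: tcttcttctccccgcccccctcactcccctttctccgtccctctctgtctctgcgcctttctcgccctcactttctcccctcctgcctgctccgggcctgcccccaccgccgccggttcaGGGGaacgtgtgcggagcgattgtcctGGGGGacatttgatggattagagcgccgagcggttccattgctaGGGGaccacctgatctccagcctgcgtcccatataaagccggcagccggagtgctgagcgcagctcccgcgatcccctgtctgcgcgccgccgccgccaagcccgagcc
The 4 windows held 80.7%, 71.7%, 71.3% and 66.7% G and C in this order, with 7, 6, 10 and 3 such runs. A run of 4 G, searched on the gene strand alone, was found in 84.0% of the 669 RefSeq promoter windows of protein-coding genes in the end windows and in 81.1% of all 22199 such windows, so it is a common feature and no mark of these genes.

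What was measured throughout is covered length, the number of bases under called peaks in a region, a gene or a 1 Mb window. It says how much sequence passed the authors' peak caller, not how strong the signal was. For tests each sample was scaled to the average total of the 6, then put on the scale log2(bp + 500) and fitted with limma over the whole table, and a value was called at a Benjamini-Hochberg adjusted p under 0.05. The peak lists covered 73.5, 78.2 and 72.7 Mb in shT2 replicates 1 to 3 and 70.5, 62.9 and 68.0 Mb in shNC3 replicates 1 to 3. The libraries behind the lists differed in depth, which was recovered as 3.31, 3.46 and 3.08 fragments per base in shT2 and 1.79, 1.65 and 1.74 in shNC3. Some results are therefore also given from lists thinned to equal depth. Thinning dropped whole peaks whose thinned summit no longer passed the cut-off. Peaks that were kept retained their full width, so covered lengths were not matched for depth. Scaling shifted the median log2 difference by -0.15 over all 1 Mb windows, so members whose peaks were equally long with both hairpins read slightly below 0.

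The first megabase of the chromosome ends held less R-loop sequence than the second, and the gap was wider with shT2. The 39 end windows held 3432, 3670 and 3348 kb under peaks in shT2 replicates 1 to 3, against 3956, 3602 and 3851 kb in shNC3 replicates 1 to 3. The next megabase inward held 5214, 5448 and 5143 kb in shT2 and 5343, 4925 and 5221 kb in shNC3. The ratio of end to inward covered length was 0.661 ± 0.0115 in shT2 and 0.736 ± 0.00461 in shNC3 (SD, n = 3 each), and no shT2 value reached a shNC3 value. It lay under 1 in all 6 samples (mean 0.699), with an exact paired permutation p of 0.03125, the smallest that 6 samples allow. The difference of -0.0755 between hairpins had an exact two-sided permutation p of 0.1, the smallest that 3 samples against 3 allow. This comparison needs no scaling, and with lists thinned to equal depth the difference was -0.0787 and without the 13q end -0.0605. The second megabase was itself the most covered of the first 10. The first lay above the third, which held 3.24, 3.39 and 3.16 Mb in shT2 and 3.27, 2.98 and 3.16 Mb in shNC3, and above each of those further in. With end windows of 2 Mb set against the next 2 Mb inward, the direction was reversed (mean ratio 1.67), so the result depends on the window size. That ratio was also lower in each shT2 sample, at 1.609, 1.614 and 1.611, against 1.705, 1.741 and 1.733 in shNC3.

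The ends took a smaller share of all R-loop sequence with shT2. They held 4.66% ± 0.0447 of all covered bases in shT2 and 5.67% ± 0.0590 in shNC3 (SD, n = 3 each; exact two-sided permutation p = 0.1). In absolute length the hairpins overlapped at the ends (8.93% ± 0.428 of the end sequence covered in shT2 and 9.75% ± 0.466 in shNC3, exact permutation p = 0.2), and further inward the order was the other way (13.5% ± 0.409 in shT2 and 13.2% ± 0.552 in shNC3, exact permutation p = 0.6). Gene number did not run with these lengths. The end windows hold 750 protein-coding genes and the inward windows 619, and covered length per gene was 4.86 kb at the ends and 8.43 kb inward. Single ends varied: 20 of the 39 were less covered than their neighbour in all 6 samples, and 14 were more covered in all 6.

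**Figure D1:**
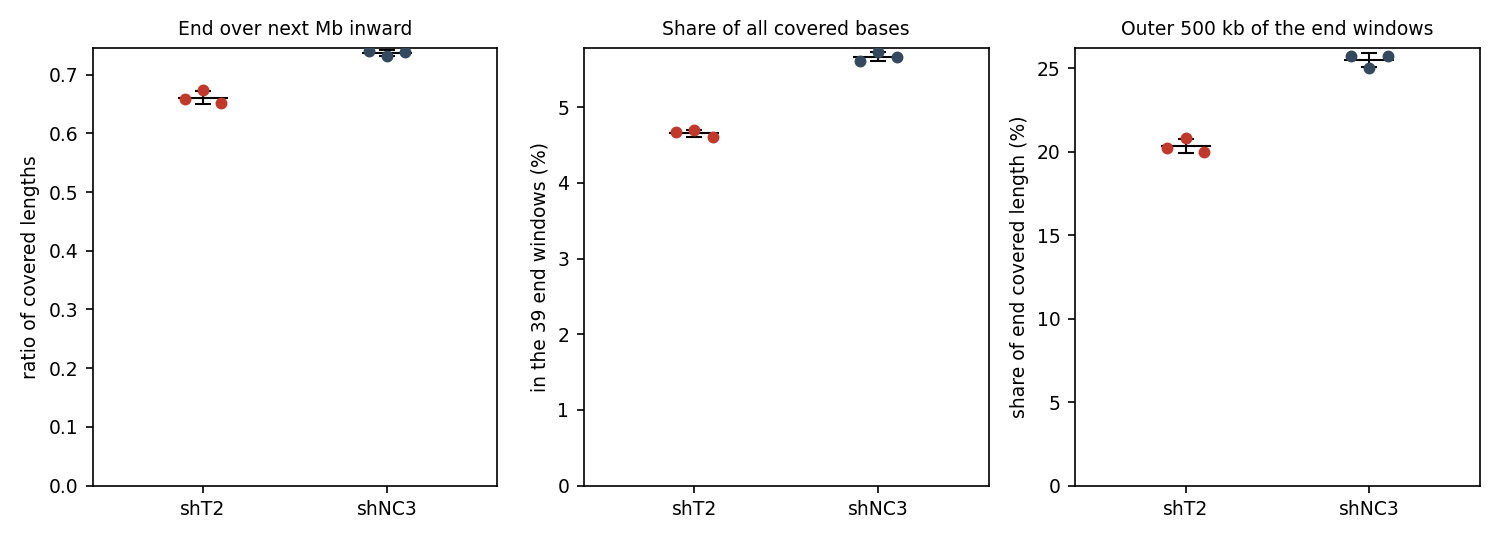
Points are single samples, with shT2 left of shNC3; bars give mean and SD (n = 3 each). Left, covered length of the 39 end windows over that of the next megabase inward; centre, percent of all covered bases that lay in the end windows; right, percent of the end windows' covered length in their outer 500 kb. In all 3 panels every shT2 sample lies below every shNC3 sample.

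Within the end megabase, R-loops were sparse near the telomere and became dense further in. The outermost 100 kb of the 39 ends held only 15.94, 18.03 and 15.91 kb under peaks in shT2 replicates 1 to 3 and 23.0, 23.3 and 25.3 kb in shNC3 replicates 1 to 3, whereas the slice from 700 to 800 kb held 623, 650 and 615 kb in shT2 and 641, 590 and 621 kb in shNC3. The shT2 samples were lower in the outer slices and level with shNC3 in the inner ones. The scaled ratio of the hairpin means was 0.623 in the first 100 kb, lowest at 0.555 from 200 to 300 kb, 0.699 from 400 to 500 kb, 0.865 from 600 to 700 kb and 0.933 in the last 100 kb. Without scaling the same 5 slices gave 0.696, 0.619, 0.779, 0.964 and 1.04.

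The outer 500 kb held 20.2%, 20.8% and 20.0% of the end windows' covered length in shT2 replicates 1 to 3, against 25.8%, 25.0% and 25.7% in shNC3 replicates 1 to 3 (difference of means -5.16 percentage points, exact two-sided permutation p = 0.1, the smallest possible). The groups did not overlap, and the means were 20.3% in shT2 and 24.5% in shNC3 when the 13q end was left out, an alternative chosen after seeing the data. Of 26 ends with at least 1 kb covered in both parts with both hairpins, 20 had a lower ratio of shT2 to shNC3 in the outer than in the inner part.

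**Figure D2:**
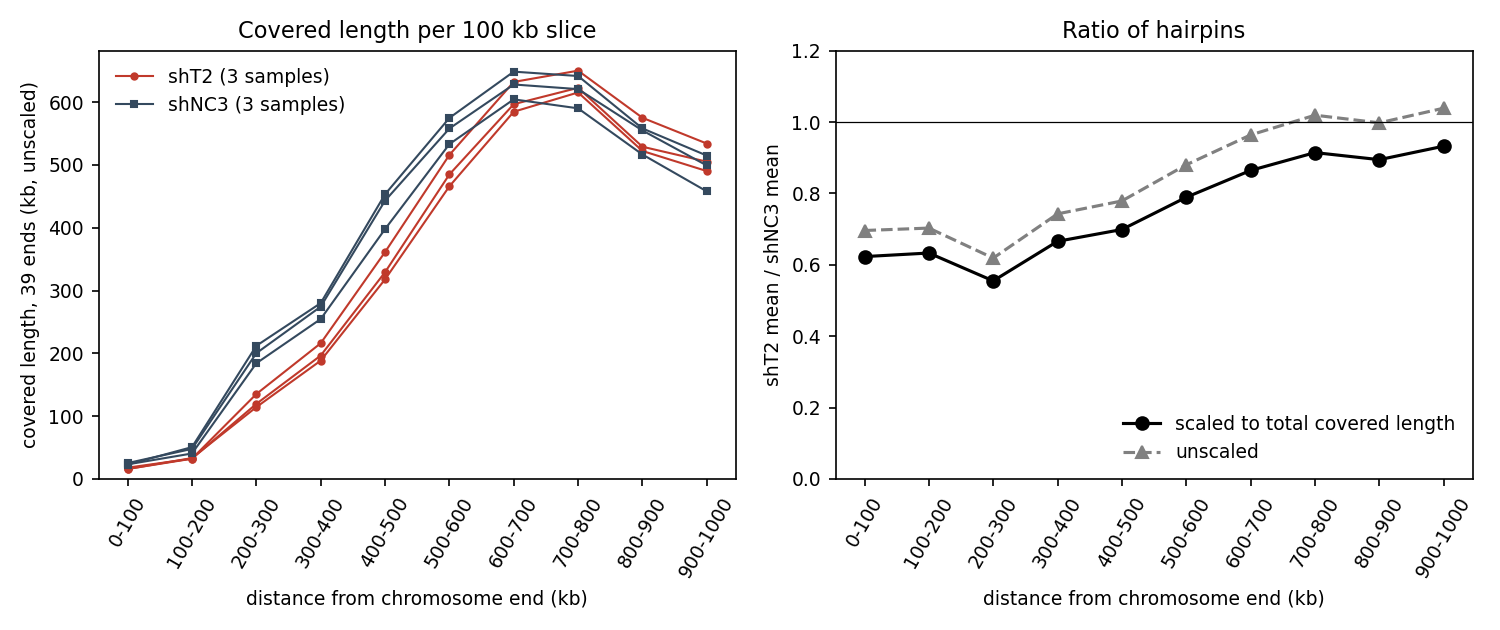
Left, covered length summed over the 39 ends in 100 kb slices by distance from the chromosome end, 1 line per sample (unscaled kb). Right, the ratio of the shT2 mean to the shNC3 mean in each slice, scaled to total covered length (circles) and unscaled (triangles). The scaled ratio is between 0.555 and 0.699 in the outer 500 kb and reaches 0.933 in the last slice.

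End by end, most of the subtelomeric R-loop sequence sat on a few arms. The ends of 11p, 16p, 8q, 19p, 20q, 12q, 22q and 16q together held 55.6% of it, while 10 ends held under 10 kb each on average. The 11p end, with 50 protein-coding genes, was covered over 301, 315 and 303 kb in shT2 and 369, 338 and 351 kb in shNC3 (log2 difference -0.36, SE 0.02). The 16p end, which carries the alpha-globin cluster and 55 protein-coding genes in all, was covered over 307, 319 and 297 kb in shT2 and 342, 321 and 334 kb in shNC3 (-0.27, SE 0.02). The 8q end was covered over 237, 255 and 234 kb in shT2 and 297, 276 and 292 kb in shNC3 (-0.41, SE 0.02). All 3 were called shorter in shT2. At the other extreme stood 3p, 6p and 14q, whose means over the 6 samples were 0.441, 0.625 and 1.23 kb. Of these, 6p was called shorter in shT2 (0, 0.367 and 0 kb in shT2 against 1.01, 1.603 and 0.767 kb in shNC3), and 3p and 14q were not called, although 14q was called without shNC3 replicate 3 (-0.72, limma adjusted p = 0.0396).

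Of the 39 ends, 26 were called shorter and 7 longer in shT2, and 6 were not called. Over all 2120 autosomal windows tested, 27.3% were called shorter, 38.1% longer and 65.4% either way, so a call in either direction was common and the count for the ends is read against these shares. The scaled hairpin values did not overlap at 34 of 39 ends, against 71.8% of all windows. Without scaling, 15 ends were shorter and 7 longer (38.5% and 17.9%), against 17.1% shorter and 44.2% longer of all windows. The median log2 difference was -0.33 over the ends, -0.11 over the 36 inward windows tested and 0.08 over all windows. Of the 36 ends whose inward neighbour was tested, 28 had the lower value of the pair. Windows with much coverage leaned towards shorter everywhere: with a mean of at least 50 kb, 18 of 20 ends, 15 of 24 inward windows (62.5%) and 153 of 342 other autosomal windows (44.7%) were shorter in shT2. These shares are a description, and no test of the difference between window classes was made.

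The largest losses of whole ends were on 1q, 4q and 13q. The 1q end, which holds 32 protein-coding genes, was covered over 1.49, 1.03 and 1.73 kb in shT2 against 10.98, 9.90 and 10.67 kb in shNC3 (log2 difference -2.67, SE 0.17, limma adjusted p = 6.26e-06). Most of it lay at ZNF692 and SH3BP5L, named here after their values were seen. Over ZNF692, a zinc finger gene, the member chr1:248855057-248859525 had 302, 0 and 323 bp in shT2 against 3883, 4469 and 4469 bp in shNC3, and SH3BP5L nearby carried 7 members, of which 5 were tested and all 5 were shorter. The 4q end, where the D4Z4 repeat array and DUX4 of facioscapulohumeral dystrophy lie, was covered over 0.577, 0 and 0.542 kb in shT2 against 3.30, 4.35 and 4.25 kb in shNC3 (-2.52, SE 0.32, limma adjusted p = 0.00019). With peaks of at least 5-fold enrichment the 4q call was lost (-1.05, limma adjusted p = 0.0816). DUX4 itself carried no peak in any sample.

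The 13q end differed over a long tract. It was covered over 33.4, 39.5 and 27.5 kb in shT2 against 124, 106 and 122 kb in shNC3 (log2 difference -1.96, SE 0.09, limma adjusted p = 1.53e-06), and the groups were far apart. Among its 140 members, 54 were tested, 36 were shorter and 1 was longer. RASA3, a GTPase-activating gene for Ras and Rap, carried 54 of the members, and the 17 tested were all shorter, 15 of them private to shNC3 (3 of 3 samples, against 0 of 3 in shT2). A region seen with 1 hairpin alone enters the test only through that hairpin, so its call is fixed by this pattern. GAS6, whose product is the ligand of the TAM receptor kinases, lies further in on the same end and was covered, as a gene, over 3753, 4047 and 2068 bp in shT2 against 21181, 13748 and 16583 bp in shNC3 (-2.39, limma adjusted p = 0.000147).

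Longer coverage of a whole end in shT2 was most marked at 10p, 12p and 11q. The 10p end was covered over 50.9, 59.7 and 49.8 kb in shT2 and 31.0, 25.9 and 26.2 kb in shNC3 (log2 difference 0.78, SE 0.07). LARP4B, which encodes a La-related RNA-binding protein, overlapped 30 of its members, and DIP2C 29; like RAD52 below, both are named after their values were seen. Of the 12 and 8 tested, 6 and 4 were longer, and 2 and 0 shorter. The 12p end was covered over 24.9, 27.3 and 23.8 kb in shT2 and 13.5, 11.4 and 15.5 kb in shNC3 (0.74, SE 0.09). RAD52, a recombination gene, overlapped 12 members there, of which 6 were tested and 4 were longer; the member chr12:925605-928541 had 2598, 2384 and 1929 bp in shT2 against 0, 0 and 321 bp in shNC3. The 11q end was covered over 11.2, 14.5 and 11.4 kb in shT2 and 8.55, 5.98 and 9.58 kb in shNC3 (0.46, SE 0.15, limma adjusted p = 0.0227), a call that was lost with thinned lists (0.30, limma adjusted p = 0.118), without shT2 replicate 2 (0.38, limma adjusted p = 0.0873) and without shNC3 replicate 2 (0.32, limma adjusted p = 0.0606).

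**Figure D3:**
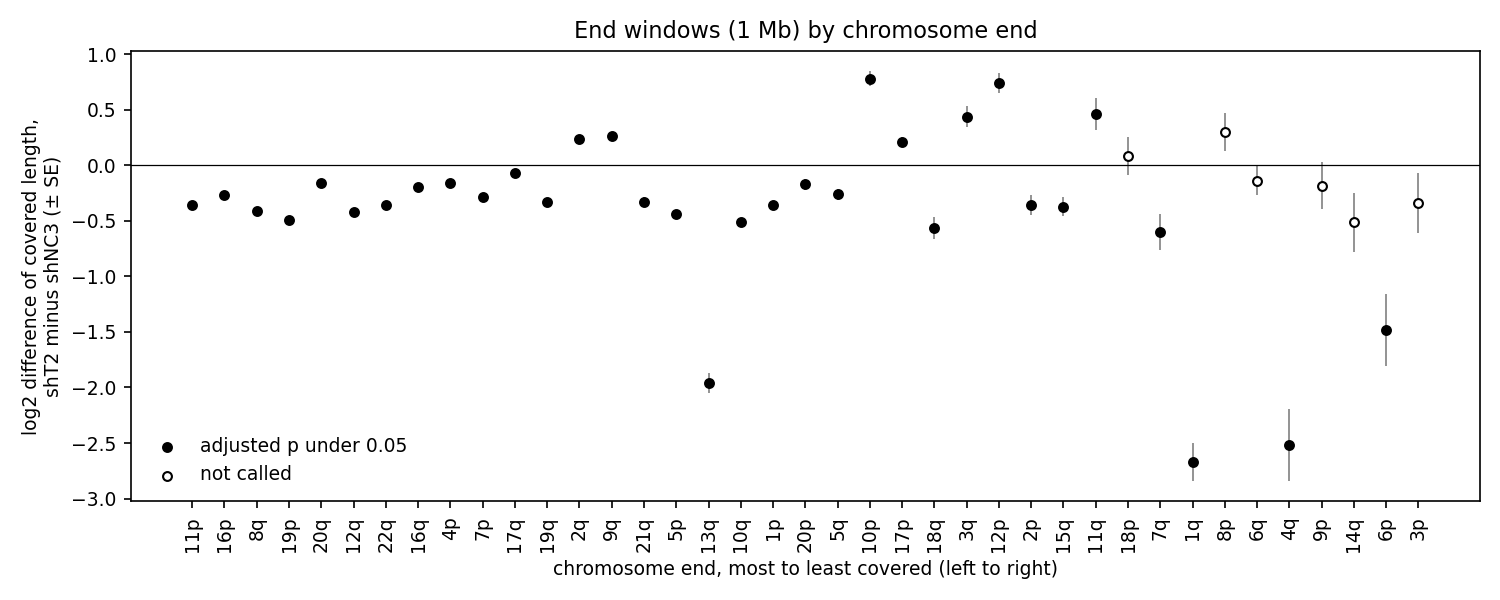
Log2 difference of covered length (shT2 minus shNC3, limma coefficient ± SE) for each of the 39 end windows, ordered from the most covered (left) to the least covered (right). Filled points passed an adjusted p of 0.05. The 1q, 4q and 13q ends lie lowest, at -2.67, -2.52 and -1.96, and 10p and 12p highest, at 0.78 and 0.74.

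Seen region by region, the members were mostly short and often found in few samples. Their median width was 702.5 bp, 941 of the 2794 (33.7%) were seen in 1 sample, and 698 (25.0%) had a peak in all 6, with a median width of 3573.5 bp. By midpoint, 1780 (63.7%) lay in gene bodies, 823 (29.5%) within 2 kb of a gene's edge and 191 (6.84%) between genes, against 10.2% between genes in the next megabase inward. In all, 1422 members were covered in at least 3 of the 6 samples and were tested.

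Of the 1422 tested members, 417 (29.3%) were shorter and 187 (13.2%) longer in shT2. Over all 34776 regions tested in the genome, 17.0% were shorter, 22.6% longer and 39.6% either way, and the difference between members and genome was not tested. Regions private to 1 hairpin, with a peak in 3 of 3 of its samples and 0 of 3 of the other, pass the filter only through the hairpin where they are covered, so their direction was fixed. They made up 147 of the 417 shorter and 104 of the 187 longer members. Without them, 270 of 1170 members were shorter (23.1%) and 83 longer (7.1%), against 13.3% and 12.2% of 28182 regions genome-wide. Of the 1706 inward regions tested, 369 were shorter and 291 longer (21.6% and 17.1%). The median log2 difference was -0.17 over the tested members, -0.10 over the inward regions and 0.02 over all regions. Members closer to the end leaned further: within 500 kb, 190 of 440 tested were shorter (43.2%) and 46 longer, and beyond it 227 of 982 were shorter (23.1%) and 141 longer. The inward counts and these counts by distance include private regions, whose direction was fixed. Within 500 kb, 89 members were private to shNC3 and 33 to shT2, and the lean without them was not counted. The scaled hairpin values did not overlap at 845 of the 1422, against 54.6% of all regions tested. Scaling alone can part equal values, so these counts partly restate it. Thinned lists gave 370 shorter and 156 longer members.

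Members private to 1 hairpin were also counted. In shT2 alone, with a peak in 3 of 3 shT2 samples and 0 of 3 shNC3 samples, were 105 members (3.76%, against 5.86% of all regions), and in shNC3 alone 147 members (5.26%, against 2.85% of all regions). In the next megabase inward the counts were 145 in shT2 alone and 104 in shNC3 alone. With lists thinned to equal depth the members counted 77 and 176. The more deeply sequenced shT2 samples thus had fewer private members at the ends than the shNC3 samples.

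Members over promoters were the class most often called shorter. A RefSeq promoter window of a protein-coding gene was overlapped by 221 members, of which 196 were tested, 109 were shorter (55.6%) and 11 longer in shT2. Of 215 such inward regions tested, 88 were shorter (40.9%) and 7 longer. Regions private to 1 hairpin, whose direction was fixed, were not taken out of these counts. The share of calls among all promoter regions of the genome is not given here, so the lean may not be particular to the ends. Counted as promoter windows, 31.7%, 34.4% and 30.3% of the 669 end promoters were covered in shT2 replicates 1 to 3, against 43.0%, 40.2% and 42.9% in shNC3 replicates 1 to 3, and the groups did not overlap. Over all 22199 promoters the values were 27.6%, 29.4% and 26.9% in shT2 and 32.1%, 28.4% and 30.5% in shNC3. In all 3 samples of 1 hairpin and none of the other were 6 end promoters for shT2 and 34 for shNC3, against 278 and 495 of all promoters. End promoters were GC-rich, with a median of 69.3% against 62.3% over all promoters and 69.0% inward, and those covered in all 6 samples had a median of 71.2% against 66.0% for those never covered.

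The members with the largest losses were at RASA3, PDGFA and other gene starts and bodies, and several had no peak at all in shT2. Where a hairpin is listed at 0 in every sample the fitted difference depends on the pseudocount, and the member entered the test only through the other hairpin, so the levels are given as a description, with no fold and no p. The region over the RASA3 start shown above, chr13:114126163-114133123, had 0 bp in all 3 shT2 samples against 6901, 6887 and 6940 bp in shNC3. A member inside the gene, chr13:114095535-114099605, had 0 bp in all 3 shT2 samples against 4071, 3978 and 4034 bp in shNC3. The shNC3 values at each of these differed by a few percent among themselves.

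PDGFA encodes the A chain of platelet-derived growth factor, a mitogen of mesenchymal cells. The member over its start, chr7:517070-521447, had 0 bp in all 3 shT2 samples against 3951, 3418 and 3351 bp in shNC3. The next member, chr7:521858-526658, lies over the divergent lncRNA PDGFA-DT and LOC105379749 and had 0 bp in all 3 shT2 samples against 4801, 3238 and 3040 bp in shNC3. Over the whole gene, PDGFA was covered over 0, 289 and 0 bp in shT2 against 10602, 6987 and 9910 bp in shNC3. ZNF251, a zinc finger gene on 8q, had a member at its edge with 0 bp in all 3 shT2 samples against 3307, 3632 and 3632 bp in shNC3.

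Other large losses left short remnants in shT2. LSS, the lanosterol synthase gene of cholesterol synthesis on 21q (chr21:46212504-46219322), had 0, 316 and 0 bp in shT2 against 5809, 4897 and 5743 bp in shNC3 (log2 difference -3.43, SE 0.21, limma adjusted p = 0.000335). LMF2, a lipase maturation factor gene on 22q (chr22:50501811-50507679), had 0, 397 and 339 bp in shT2 against 5071, 4744 and 5869 bp in shNC3 (-3.08, SE 0.24). The region across the start of RNF126, an E3 ubiquitin ligase gene on 19p (chr19:661947-668822), had 0, 703 and 312 bp in shT2 against 5262, 4741 and 5412 bp in shNC3 (-2.94, SE 0.30). The RNF126 promoter window itself lay under a peak in shNC3 replicate 3 alone. At the members of LSS, LMF2 and RNF126 the groups lay far apart. Another RASA3 member and one over C13orf46 differed by -2.99 and -2.95.

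The 10 largest gains lay between 675 and 986 kb from the end. FARP2, a guanine nucleotide exchange factor gene on 2q, had the largest (chr2:241440204-241444770), with 4131, 4567 and 4262 bp in shT2 against 0 bp in all 3 shNC3 samples. PCBP3, an RNA-binding protein gene on 21q (chr21:45765224-45768422), had 2594, 2850 and 2725 bp in shT2 against 0 bp in all 3 shNC3 samples. LOC124900586 on 16p had 2902, 3168 and 2992 bp in shT2 against 0 bp in all 3 shNC3 samples; with a merging gap of 1000 bp it joined the longer tract beside it, which was shorter in shT2 (-0.25, limma adjusted p = 0.00266). Also listed at 0 in shNC3 were members in ANKRD11 on 16q, near ATP9B on 18q and, in 2 places, near LOC112268102 on 12q, with 1612 to 3396 bp in shT2.

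The shT2-only promoters shown above belong to this group. The member over COX19, an assembly factor of cytochrome c oxidase, and the neighbouring CHLSN (chr7:974314-979202) had 4720, 4889 and 4881 bp in shT2 against 789, 0 and 917 bp in shNC3 (log2 difference 2.37, SE 0.41, limma adjusted p = 0.00656). The member over SCRT2, a neuronal transcriptional repressor of the Scratch family (chr20:673882-677040), had 2880, 3159 and 2173 bp in shT2 against 0, 0 and 337 bp in shNC3 (2.36, SE 0.27, limma adjusted p = 0.00188). The member in LARP4B on 10p had 2615 bp in each shT2 sample against 415, 0 and 0 bp in shNC3 (2.28, SE 0.28, limma adjusted p = 0.00231). In all 3 the lowest shT2 value lay above the highest shNC3 value.

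**Figure D4:**
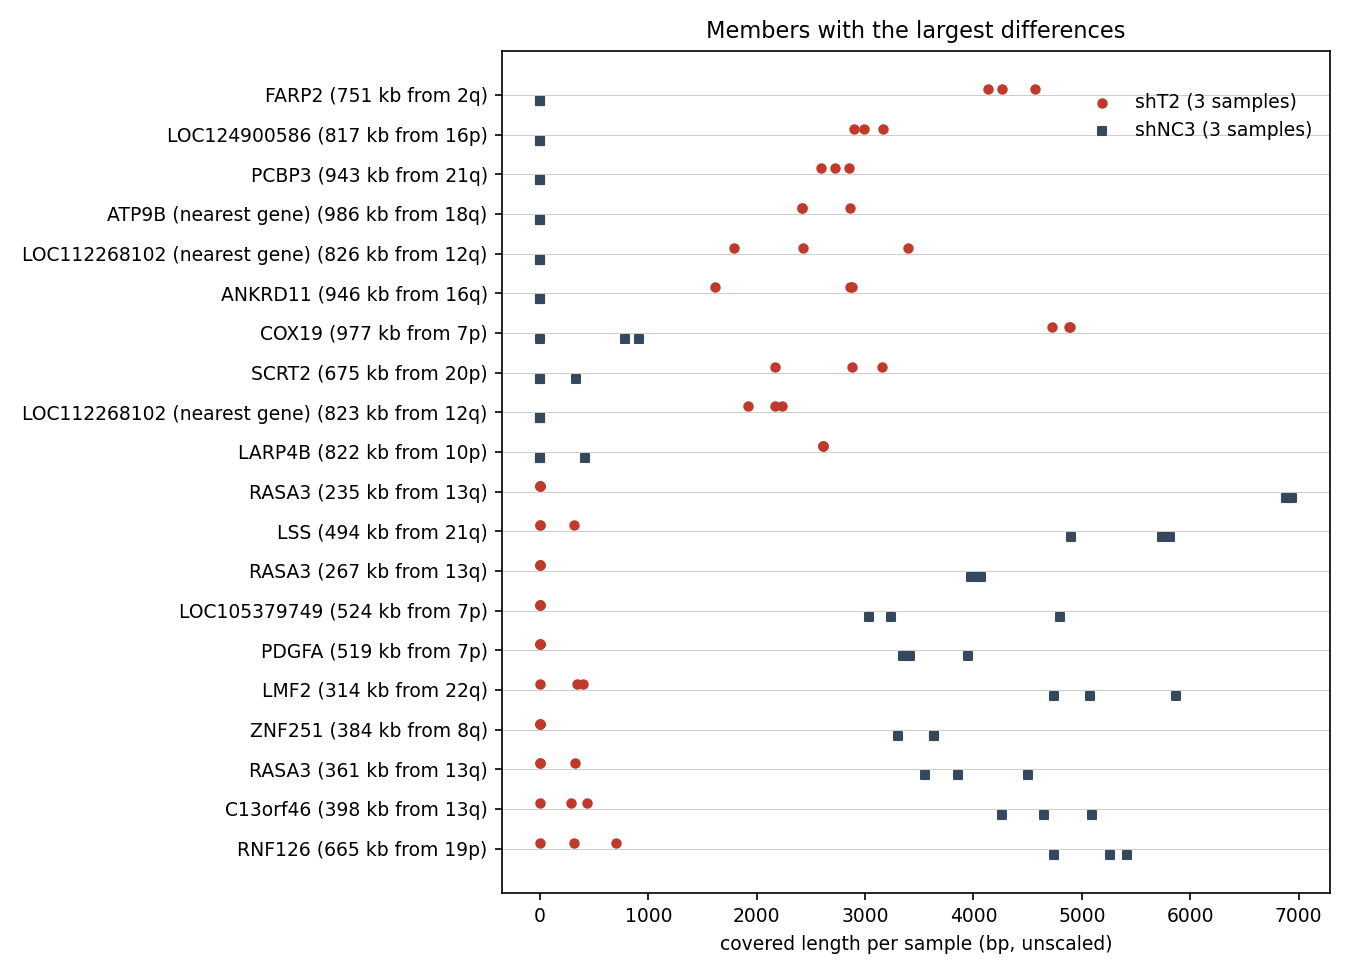
Covered length per sample (bp, unscaled) of the 10 members with the largest gain and the 10 with the largest loss in shT2 among called members whose groups did not overlap. Labels give the gene and the distance of the midpoint from the named chromosome end; circles are shT2 and squares, drawn below them, shNC3. Losses reach 6940 bp in shNC3 at RASA3, gains 4889 bp in shT2 at COX19.

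The members with the most covered bases were tracts over several genes, most of which were covered almost end to end with both hairpins. The widest, chr11:817567-871045, spans PNPLA2 (adipose triglyceride lipase), CRACR2B, CD151, POLR2L (a shared RNA polymerase subunit), TSPAN4 and CHID1 on 11p. It was covered over 50595, 50805 and 50538 bp in shT2 and 52827, 52338 and 52914 bp in shNC3 (log2 difference -0.21, SE 0.05, limma adjusted p = 0.0137). It lost its call with peaks of at least 5-fold enrichment (-0.14, limma adjusted p = 0.0516), with plain eBayes (limma adjusted p = 0.128) and without shT2 replicate 2 (-0.18, limma adjusted p = 0.0548). On 16p, chr16:641994-692265 over MCRIP2, RHOT2, STUB1 and 4 other genes was covered over 49468, 49474 and 49029 bp in shT2 and 49840, 49038 and 48856 bp in shNC3. Its scaled difference of -0.15 (limma adjusted p = 0.0415) was 0.00 without scaling (limma adjusted p = 0.879).

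Among the other 8 of these 10 tracts, 2 were not called. Those over FBXL16 to CIAO3 on 16p and PPP1R16A to ARHGAP39 on 8q, which includes the helicase gene RECQL4, stood at -0.10 and -0.09, and without scaling stood at 0.06 and 0.07 (limma adjusted p = 0.00898 and 0.0159). Those over PHRF1 to SCT and GATD1 to RPLP2 on 11p, CFD and MED16 on 19p and RAB11FIP3 to CAPN15 on 16p lay between -0.22 and -0.16. Without scaling the calls over CFD and MED16, PHRF1 to SCT and RAB11FIP3 to CAPN15 were lost, at -0.06, -0.019 and -0.0039 (limma adjusted p = 0.107, 0.77 and 0.753 in this order). With plain eBayes no call among these 4 was kept (limma adjusted p between 0.116 and 0.2348). In lists thinned to equal depth the calls over PHRF1 to SCT, GATD1 to RPLP2, RAB11FIP3 to CAPN15 and MCRIP2 to WDR24 were lost, at -0.10, -0.12, -0.08 and -0.08 (limma adjusted p = 0.0817, 0.0838, 0.192 and 0.2097 in this order). The clearest losses were in LRRC56 to PHRF1 on 11p, with 17302, 23546 and 17463 bp in shT2 against 29274, 28252 and 30238 bp in shNC3 (-0.75, SE 0.10, limma adjusted p = 0.00305), and in RPUSD1 to GNG13 on 16p, with 32358, 32680 and 30802 bp in shT2 against 37908, 36472 and 37616 bp in shNC3 (-0.38, SE 0.04, limma adjusted p = 0.00107).

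Next to the telomere itself no difference between hairpins was called. In all, 20 members lay within 50 kb of an end, and 15 of them, at 9 ends, were covered in at least 3 samples. They lay between 10.33 and 15.96 kb from the coordinate end, some of them over or beside DDX11L and WASH gene copies and long noncoding RNAs; in hg38 the coordinates of most chromosome ends start with unsequenced bases, which can carry no peak. In all, 7 ends (2p, 3p, 9p, 10q, 11q, 12p and 15q) had such a member in all 6 samples. The limma adjusted p of the 15 ran from 0.0798 to 0.890, and 1 of them had an unadjusted p under 0.05.

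The largest of these, chr12:11612-15270 on 12p over DDX11L8 and WASH8P, was covered over 2342, 2813 and 2366 bp in shT2 and 2470, 3659 and 2693 bp in shNC3 (log2 difference -0.32, SE 0.17, limma adjusted p = 0.199). On 2p, chr2:11256-12322 in LOC105377636 was covered over 1067, 1030 and 1042 bp in shT2 and 1064, 1056 and 1057 bp in shNC3 (-0.12, SE 0.13). On 9p, chr9:14198-15076 at WASHC1 was covered over 764, 766 and 749 bp in shT2 and 863, 862 and 824 bp in shNC3 (-0.20, SE 0.14). The groups were close or overlapped at all 3, and with these SE a modest difference could have been missed. The largest difference was on 16p, where chr16:12322-13097 had 0, 0 and 604 bp in shT2 against 687, 661 and 714 bp in shNC3 (-0.92, SE 0.34, limma adjusted p = 0.0798). These groups did not overlap, and the member was called without shT2 replicate 3 (-1.29, limma adjusted p = 0.0070). These families are near-identical between ends, so reads may have been placed on the wrong copy or dropped, and each end's own value is uncertain.

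**Figure D5:**
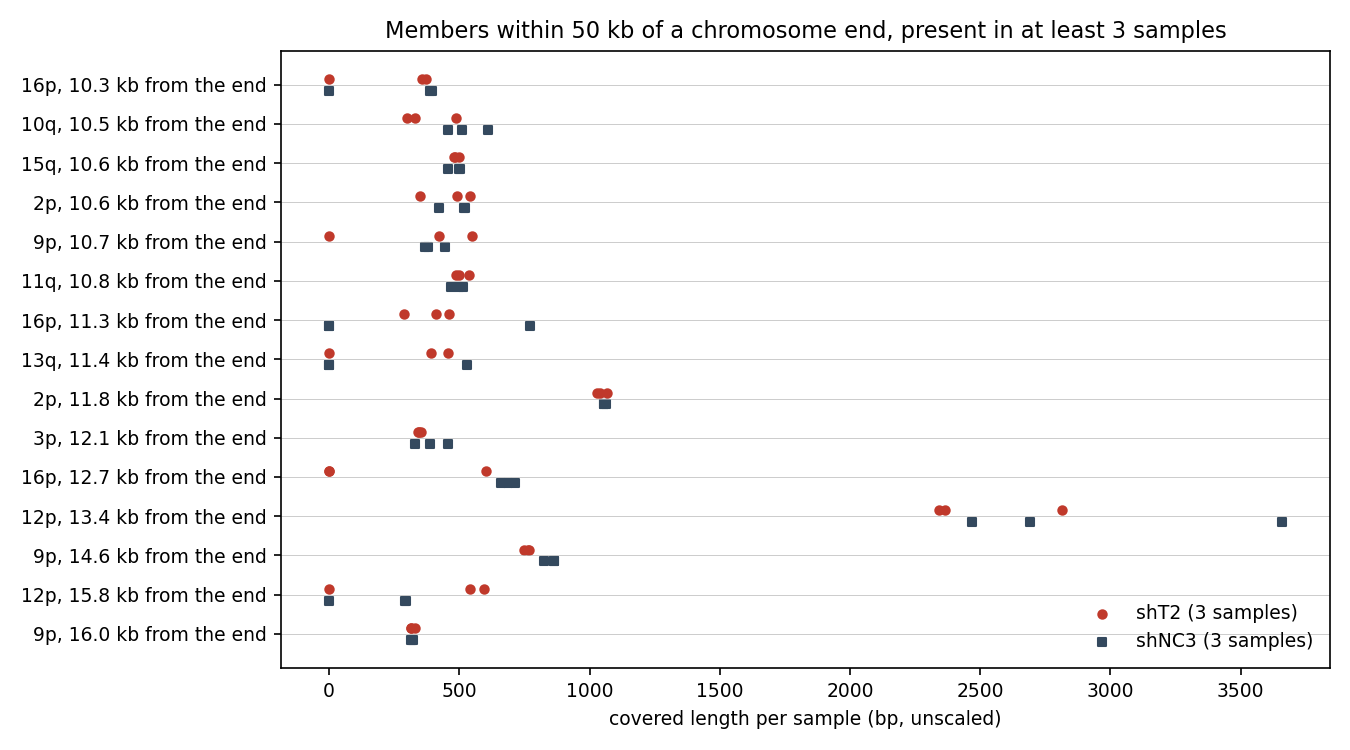
Covered length per sample (bp, unscaled) of the 15 members within 50 kb of a chromosome end that were covered in at least 3 samples, ordered by distance from the end. Circles are shT2 and squares, drawn below them, shNC3. All 15 lie between 10.33 and 15.96 kb from the end, and none was called.

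The first member from the end lay at a median of 158 kb over the 39 ends, from 10.3 kb on 16p to 512 kb on 9q. The first member seen in all 6 samples, found at 36 ends, lay at a median of 264 kb. Examples are CHMP2A and UBE2M at 62.4 kb from the end of 19q, with 436, 325 and 340 bp in shT2 against 1594, 1121 and 1634 bp in shNC3, and GAL3ST2 at 394 kb on 2q, with 6518, 6509 and 5613 bp in shT2 against 885, 593 and 1507 bp in shNC3. Both orders thus occurred among outermost members; these 2 are named after their values were seen.

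Counted by gene, 469 of the 750 protein-coding genes of the end windows were tested, 224 were shorter and 55 longer in shT2. Over all 11771 genes tested, 27.2% were shorter, 24.2% longer and 51.3% either way. At 358 of the 469 end genes the scaled hairpin values did not overlap, against 65.0% of all genes tested. Scaling alone can part equal values: RPL8, with 6622 bp in all 6 samples, is among the 358. Of 463 genes tested in the next megabase inward, 192 were shorter and 63 longer. The median log2 difference was -0.23 over end genes, -0.16 over inward genes and -0.08 over all genes. The gene groups below are described by counts and medians, with no test of a group. Groups of end genes are to be read against the shares over all tested end genes, 47.8% shorter and 11.7% longer. Genes at 0 in all 3 samples of 1 hairpin, such as FRG1, MPG and CACNA1B, entered the test only through the other hairpin. Their direction was fixed, and the counts and shares by gene, here and in the lists below, include them.

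Few of the gene families typical of subtelomeres carried peaks. Of 15 genes of the duplicated families (olfactory receptors of the OR4F family, TUBB8, FRG1, FRG2, DUX4 and WASHC1), only 2 were covered in at least 3 samples. FRG1 on 4q was covered over 0 bp in all 3 shT2 samples against 431, 737 and 569 bp in shNC3, and WASHC1 on 9p was not called (-0.19). At the alpha-globin locus the pattern was mixed. The globin genes HBA1, HBA2, HBM and HBZ had no peak in any sample, and neither did their neighbours POLR3K, RHBDF1 and SNRNP25. NPRL3, covered over 0 bp in all 3 shT2 samples and 0, 1673 and 467 bp in shNC3, was not tested. HBQ1, the theta globin gene, was covered over 994, 1398 and 1460 bp in shT2 and 1012, 0 and 670 bp in shNC3 and was not called (0.82, limma adjusted p = 0.142). Of 8 tested among 16 genes, 3 were longer, 2 shorter and 3 not called. LUC7L, a splicing factor gene, was covered over 6704, 5648 and 4932 bp in shT2 against 0, 319 and 626 bp in shNC3 (2.91, limma adjusted p = 0.000352), while FAM234A was shorter (-0.50) and the DNA glycosylase gene MPG had no peak in shT2.

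Zinc finger genes, which cluster at the ends of 19q and 8q, were shorter at a share near that of all end genes. Of 58 in the end windows 48 were tested, 27 were shorter (56.2%), 8 longer and 13 not called, with a median of -0.45. ZNF329 on 19q was covered over 0, 348 and 0 bp in shT2 against 7628, 6107 and 6940 bp in shNC3 (-3.72, limma adjusted p = 4.16e-05). ZNF584 on the same arm was covered over 1420, 1765 and 1252 bp in shT2 against 6557, 5363 and 6645 bp in shNC3, and ZNF250 on 8q over 1503, 2605 and 1755 bp in shT2 against 9319, 7156 and 7963 bp in shNC3 (-1.89 and -1.97). A list of matrix and growth factor genes was shorter throughout, 9 of 9 tested among 12, with a median of -0.43. Of the 9, TPPP (-0.24) encodes a tubulin-binding protein and is neither kind of gene. Besides PDGFA and GAS6 the list included MADCAM1, an adhesion ligand of lymphocytes (-1.17).

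A list of DNA repair and telomere maintenance genes at the ends was short and broadly drawn. All 11 were tested, 7 were shorter (63.6%), 1 longer and 3 not called, with a median of -0.64. Of the 7 shorter, HRAS (-0.64) encodes a Ras GTPase, NCAPH2 (-0.72) a condensin subunit and MCM3AP (-0.31) an mRNA export factor. The 63.6% is therefore not a share of repair genes alone. CHFR, a mitotic checkpoint ubiquitin ligase gene on 12q, was covered over 21471, 22466 and 19973 bp in shT2 against 40906, 33277 and 37579 bp in shNC3 (-0.94, SE 0.05). POLE, the catalytic subunit of DNA polymerase epsilon on the same arm, differed by -0.76, and FANCA of the Fanconi anaemia pathway on 16q by -0.91. RTEL1, the helicase that unwinds telomeric loops, was not called on 20q, with 28247, 27542 and 26593 bp in shT2 and 25078, 23124 and 24683 bp in shNC3, which overlapped after scaling (0.02). Telomere protection genes were counted over the whole genome: of 30, 28 were tested, 4 were shorter (14.3%), 7 longer (25.0%) and 17 not called (median 0.06). This list is to be read against all genes tested, 27.2% shorter and 24.2% longer. The 3 with the smallest p were UPF1, a helicase of RNA decay (-0.46), the helicase gene WRN (0.91) and WRAP53, a factor of telomerase trafficking (-0.57).

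A list of mitochondrial genes gave 7 shorter (58.3%), 1 longer and 4 not called of 12 tested (median -0.56). One of the 7, PSMD13 (-1.80), encodes a proteasome subunit and is not mitochondrial. The smallest p was that of POLRMT, the mitochondrial RNA polymerase on 19p, which was covered over 5936, 5613 and 5732 bp in shT2 against 11426, 11454 and 12723 bp in shNC3 (-1.13, SE 0.08). ECHS1 and CPT1B, both of fatty acid oxidation, differed by -0.59 and -0.53. A list of interferon and immune genes gave 7 shorter (53.8%), 1 longer and 5 not called of 13 tested, near the share of all end genes. Of the 7, IFITM3, TRIM7, SIGIRR and IFITM1 had no peak in shT2. They entered the test only through shNC3, so their direction was fixed. IFITM5, also among the 7, is a bone gene of the IFITM family. IFITM3, an antiviral membrane protein, had no peak in shT2 against 1403, 972 and 997 bp in shNC3, and its neighbour IFITM5 had 0, 0 and 321 bp in shT2 against 3708, 3572 and 2534 bp in shNC3. TRIM52 on 5q differed by -2.26.

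The other lists were mixed. A list of neuronal genes gave 7 shorter, 3 longer and 6 not called of 16 tested. Of the 7, SLC26A1 (-0.25) encodes a sulfate transporter and is not a neuronal gene. HCN2, a pacemaker channel gene, differed by -0.89 and PALM by -0.42. In contrast, SCRT2 as a gene was covered over 7268, 6173 and 5601 bp in shT2 against 306, 447 and 822 bp in shNC3 (2.65). A list of RNA processing and translation genes gave 4 shorter, 4 longer and 6 not called of 14. Of the 4 shorter, RBCK1 (-0.94) encodes a ubiquitin ligase subunit and POLRMT is the mitochondrial polymerase, so neither is an RNA processing or translation gene. Chromatin regulators gave 3 shorter, 5 longer and 3 not called of 11, and held the longest gains by bp. EHMT1, a histone H3 lysine methyltransferase gene on 9q, was covered over 46737, 50493 and 45567 bp in shT2 against 22386, 14866 and 16863 bp in shNC3 (1.24, SE 0.10). ANKRD11 on 16q was covered over 85516, 89077 and 80029 bp in shT2 against 59957, 51114 and 53172 bp in shNC3 (0.47, SE 0.04), and CSNK2A1, a casein kinase gene on 20p, was covered over 11591, 14466 and 15546 bp in shT2 against 5542, 5010 and 4840 bp in shNC3.

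Peaks at cell type markers, which are not expression, differed between the hairpins as well. Over 7 noradrenergic neuroblastoma genes the summed covered length was 76.8 to 78.4 kb in shT2 and 59.999 to 61.394 kb in shNC3, with HAND2, GATA3 and DBH not called and TH at 0 in all 6. Over 5 mesenchymal-type genes it was 11.8 to 12.7 kb in shT2 and 33.5 to 35.0 kb in shNC3, with COL1A1, PRRX1 and LGALS1 shorter and FN1 and VIM not called. Over 3 epithelial-type genes it was 0 to 0.558 kb in shT2 and 13.3 to 14.5 kb in shNC3, with KRT8 and KRT18 at 0 in all 3 shT2 samples and EPCAM at 0 in all 3 shNC3 samples. The part of such differences, and of the unequal depth, in the results at the chromosome ends was not tested.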

How the data were processed

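Hybrids were immunoprecipitated and sequenced in 3 shT2 and 3 shNC3 samples, and the labels' protocols mention an RNase H control. The authors deposited MACS2 narrowPeak lists on hg38, 1 per sample, and per the submitters' processing notes Bowtie2 2.4.4, SAMtools and MACS2 2.2.6 were used; the control used to call peaks was not named there. The deposited lists give each peak's score, its fold enrichment (a ratio) and −log10 p and q, and every deposited q is under 0.01. Fold and p at the summit gave the depth, from 1.65 to 3.46 fragments per base; peaks carry no per-site counting interval.

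Covered length was computed per merged region (gap 0), per 1 Mb window and per RefSeq protein-coding gene with 2 kb on each side, scaled to the mean total, put on log2(bp + 500) from the deposited intervals and fitted with limma 3.58.1 (R 4.3.3; eBayes with trend and robust), over all rows covered in at least 3 of 6 samples, with Benjamini-Hochberg adjustment. Single values had exact permutation tests (numpy 2.4.6), and scipy 1.17.1 served in the recovery of depth. The steps were tested on simulated data. Text names the 10 called, non-overlapping members with the largest difference in each direction, the 5 widest private to each hairpin, the 10 longest in all 6, those within 50 kb of an end, and the genes of each list by p. Members and gene lists were chosen with earlier results of these data known. Gene names and promoters are RefSeq GRCh38.p14. The values of some single marker genes are not reported here. Alternatives were the thresholds of peaks, scaling, pseudocount, merging gap, end size, equal depth, replicate block, plain eBayes and leaving out each sample.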

Additional observations from a re-analysis of the deposited data

How the results depend on the processing

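Of the values of single members, ends and genes under the alternatives, 1375 kept the side of the threshold, 45 lost the call and 4 gained it. Another 4 changed sign and were called in the main fit, under the alternative or in both. Changes of sign between values that were not called are among the 1375 and were not counted apart. The 4 were 3 long tracts without scaling, over MCRIP2 to WDR24 (0.0023), FBXL16 to CIAO3 (0.055) and PPP1R16A to ARHGAP39 (0.0681), and LOC124900586 with a merging gap of 1000 bp (-0.2481). Peaks of at least 5-fold enrichment, which are fewer, left 87 members longer and 248 shorter, 149 end genes shorter and 48 members private to shT2. Ends of 500 kb gave 46 longer and 190 shorter members, with 33 private to shT2 and 89 to shNC3, and ends of 2 Mb gave 478 and 786, with 250 and 251. The 2 Mb ends set against the next 2 Mb inward gave a ratio of 1.67, the reverse of the 1 Mb result. Without scaling 15 ends were shorter, and a gap of 1000 bp left 85 members private to shNC3. Leaving out 1 sample gave an end-to-inward ratio of 0.690 to 0.708 (exact p = 0.0625, the smallest for 5 samples) and 163 to 230 members private to shNC3, with 230 without shNC3 replicate 2. The difference in that ratio stayed between -0.115 and -0.0605. Near the telomere, the 16p members at 12.7 and 11.3 kb were called without shT2 replicate 3 and without shNC3 replicate 3, in this order (-1.29 and 0.80). The numbers do not pair the samples: same-number correlations of deviations were -0.0129, -0.0293 and -0.0157. With a replicate block, 181 members were longer and 361 shorter, 7 ends longer and 25 shorter, and 56 genes longer and 200 shorter. The lists give no reads, so weak signal under the peak threshold is not seen.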
